A study of Mus musculus with 18 samples.

Results

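The nuclear-encoded genes of mitochondrial oxidative phosphorylation were followed in 6 populations of early mouse thymocytes. Members were all probe sets annotated to a single gene whose symbol begins with Nduf, Uqcr, Cox4 to Cox8, Atp5 or Sdha to Sdhd. This rule took 87 genes with 160 probe sets, out of 12393 genes with a probe set of their own and 22626 probe sets on the array. They comprised 33 genes (67 probe sets) of complex I, 4 genes (7) of complex II, 8 genes (15) of complex III, 10 genes (24) of complex IV and 17 genes (28) of the ATP synthase. The symbols also caught 6 isoforms of complex IV subunits that are known from other tissues (6 probe sets) and 9 genes that are not subunits but assembly factors or related proteins (13 probe sets). A further 8 probe sets that name more than a single gene, among them those of Ndufb4, Ndufa11 and Ndufs6, were left out. The subunits encoded by mitochondrial DNA carry other symbols and were not analysed here.

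Oxidative phosphorylation takes place at the inner mitochondrial membrane. Complex I accepts electrons from NADH and complex II from succinate, both pass them to coenzyme Q, complex III hands them to cytochrome c, and complex IV reduces oxygen. The proton gradient built on the way drives the ATP synthase. Early thymic progenitors (ETP) are the most immature T cell precursors of the thymus, and they pass through the DN2 to the DN3 stage, where rearrangement of the T cell receptor beta locus takes place.

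Adult cells came from thymi of female C57BL/6 mice 4 to 6 weeks old and fetal cells from thymi of C57BL/6 embryos labelled E14.5, whose sex was not given. The study's methods name a later embryonic day for the same fetal samples. ETP were sorted as lineage-negative CD44+CD25-c-kit+ cells, DN2 as lineage-negative CD44+CD25+ and DN3 as lineage-negative CD44-CD25+ cells. RNA of 80000 cells went into each sample, no cells were treated, and each of the groups adult ETP, adult DN2, adult DN3, fetal ETP, fetal DN2 and fetal DN3 was measured on 3 Affymetrix mouse expression arrays, 18 in all. According to the methods, each array held RNA pooled from several independent sorts and was a technical replicate, whereas the labels call the replicates biological, so the p-values given here measure only the spread between arrays. The values were log2 expression, centred for each probe set on its median over the 18 arrays, so they hold differences between arrays but no level, and the level of a gene cannot be set against that of another.

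The sorting markers differed between the populations. Il2ra, which encodes CD25, lay at -2.80 or below (centred log2, 1420692_at) on the 3 adult ETP arrays and between 0.10 and 0.37 on the 3 adult DN2 arrays. Cd44 (1423760_at) lay between 2.29 and 2.34 in adult ETP and between 1.72 and 2.17 in fetal ETP. On the third adult DN3 array Cd44 was at -0.86, against -7.97 and -7.84 on the other 2 adult DN3 arrays. The ETP arrays, the adult ones above all, also carried myeloid and dendritic cell genes. The median over 14 probe sets of 12 myeloid marker genes was 3.32, 2.20 and 3.92 on the adult ETP arrays and at most 0.35 on any other array, and that over 10 probe sets of 7 dendritic cell marker genes was 1.57, 3.70 and 1.53 and at most 0.034 elsewhere. The medians leave out single genes that were high in fetal ETP too. Csf1r (1419872_at) lay between 9.46 and 9.70 in adult and between 7.39 and 8.90 in fetal ETP, Prtn3 between 4.86 and 8.52 and between 5.70 and 7.01, and Fcgr3 between 1.60 and 4.63 and between 3.71 and 5.26. Itgax lay between 1.64 and 3.06 in adult and between 2.85 and 3.61 in fetal ETP. The mean over the myeloid probe sets was 1.85, 2.09 and 1.98 in fetal ETP, against 3.77, 3.15 and 4.19 in adult ETP.

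Erythroid RNA set fetal arrays apart by their number. Hbb-y, an embryonic globin (1436717_x_at), was at 5.47, 9.93 and 10.74 in fetal ETP, at 0.05, 10.15 and 10.16 in fetal DN2 and at -0.14, 11.08 and 10.53 in fetal DN3, while the adult arrays lay between -0.21 and 0.00. The mean over the 17 erythroid probe sets reached 2.29 on the third fetal ETP array and was at most 0.016 on the adult arrays. Their median was 0.34 on that fetal array and at most 0.057 on the other fetal arrays. Only 1 of the 17 was called higher in fetal than adult ETP. Between fetal and adult ETP arrays of the same number, a matching by title only, the median difference of the members was 0.44, 0.62 and 0.06 log2 for numbers 1, 2 and 3. Markers of B cells and thymic stroma had array medians between -0.12 and 0.059. Of 13 probe sets of natural killer cell markers 2 were called higher in fetal than adult ETP, with Gzma higher by 9.15 log2, and so was 1 of 15 of thymic stroma (Epcam). Over all probe sets 5.04% were called higher. In bulk RNA a smaller share of a cell type and less RNA per cell cannot be told apart, and the part of these other transcripts in the results below was not tested.

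For 73 of the 87 member genes RefSeq (GRCm38.p6) gave a promoter window, of which the 250 bases before the start site were searched on both strands for short cores of sites of regulators known for respiratory chain genes. The letters CGCATGCG (NRF1) occurred in 7 of these 73 genes (9.59%) and in 2.32% of 17491 protein-coding genes. CCGGAAG (GABP, an ETS factor) occurred in 14 member genes (19.2%) and in 10.2% of all, and AAGATGGCG (YY1) in 1 member gene (1.37%), Atp5j, and in 0.84% of all. A match describes letters only. The GABP core was found in 3 of 30 complex I genes (10%), 1 of 3 of complex II and 4 of 15 of the ATP synthase, and none of the 3 motifs in Ndufv1, Sdhb, Atp5pb, Atp5g1 or Atp5o. The promoters of 5 genes described below are shown, with the motifs that were found in capitals. Ndufb6 (chr4:40279422-40279671, minus strand), Sdhd (chr9:50603850-50604099, minus strand) and Atp5h (chr11:115419920-115420169, minus strand) were picked from complex I, complex II and the ATP synthase because they hold a GABP core on the reverse strand, and it begins 232, 46 and 38 bases before the start site.
Ndufb6: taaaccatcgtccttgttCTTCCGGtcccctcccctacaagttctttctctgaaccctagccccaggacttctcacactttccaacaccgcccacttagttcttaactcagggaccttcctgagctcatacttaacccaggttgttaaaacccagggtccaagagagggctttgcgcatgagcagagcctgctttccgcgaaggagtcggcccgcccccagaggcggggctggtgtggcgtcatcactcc
Sdhd: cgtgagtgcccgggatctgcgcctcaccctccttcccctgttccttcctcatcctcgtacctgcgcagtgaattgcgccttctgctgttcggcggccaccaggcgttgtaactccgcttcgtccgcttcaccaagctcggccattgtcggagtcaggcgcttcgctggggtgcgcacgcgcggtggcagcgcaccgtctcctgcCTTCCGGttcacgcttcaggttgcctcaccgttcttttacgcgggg
Atp5h: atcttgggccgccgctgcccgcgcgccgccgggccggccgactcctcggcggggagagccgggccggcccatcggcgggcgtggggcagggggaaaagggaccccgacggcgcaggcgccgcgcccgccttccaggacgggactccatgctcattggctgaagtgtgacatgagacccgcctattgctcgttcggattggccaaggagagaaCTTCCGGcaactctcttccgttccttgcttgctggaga
Ndufaf4 (chr4:24897833-24898082, plus strand) and Cox7a2l (chr17:83514334-83514583, minus strand) are shown because their patterns departed from those of the subunits. The Ndufaf4 window holds an NRF1 core that begins 112 bases before the start site, and none of the 3 motifs occurs in that of Cox7a2l.
Ndufaf4: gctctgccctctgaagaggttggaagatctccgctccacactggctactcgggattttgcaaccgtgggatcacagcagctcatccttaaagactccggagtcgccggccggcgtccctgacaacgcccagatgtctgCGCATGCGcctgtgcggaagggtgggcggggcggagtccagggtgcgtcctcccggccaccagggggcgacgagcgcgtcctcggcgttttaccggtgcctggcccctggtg
Cox7a2l: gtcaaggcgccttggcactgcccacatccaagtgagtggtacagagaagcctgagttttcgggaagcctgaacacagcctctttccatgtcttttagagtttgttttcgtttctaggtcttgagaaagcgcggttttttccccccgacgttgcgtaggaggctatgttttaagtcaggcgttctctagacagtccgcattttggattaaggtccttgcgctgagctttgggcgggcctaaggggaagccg

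Most member probe sets had their lowest values in adult ETP. Of the 160 member probe sets, 107 (66.9%) had their lowest group mean in adult ETP, against 36.3% of all probe sets, and 88 (55%) had their highest in fetal DN2, against 10.1% of all. The median over the members was -0.49, -0.39 and -0.06 on the 3 adult ETP arrays, between -0.21 and 0.12 in adult DN2, and between -0.04 and -0.01 in adult DN3. On the fetal arrays it was 0.04, 0.18 and -0.13 in ETP, 0.04, 0.36 and 0.10 in DN2, and -0.04, 0.25 and 0.02 in DN3. Thus the third adult ETP array lay above the other 2, and the second array was the highest of its group in each fetal population and in adult DN2. Over all probe sets the array medians ranged from -0.089 to 0.050. Without the second fetal DN2 array the number of members with their highest mean in fetal DN2 fell from 88 to 54 (8.34% of all probe sets), and leaving out any single array left between 83 and 115 members lowest in adult ETP. The share of all probe sets moved more. Without the first adult ETP array 95 members (59.4%) were lowest in adult ETP, against 54.7% of all probe sets, and without the first adult DN3 array 109 (68.1%), against 48.3%.

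**Figure D1:**
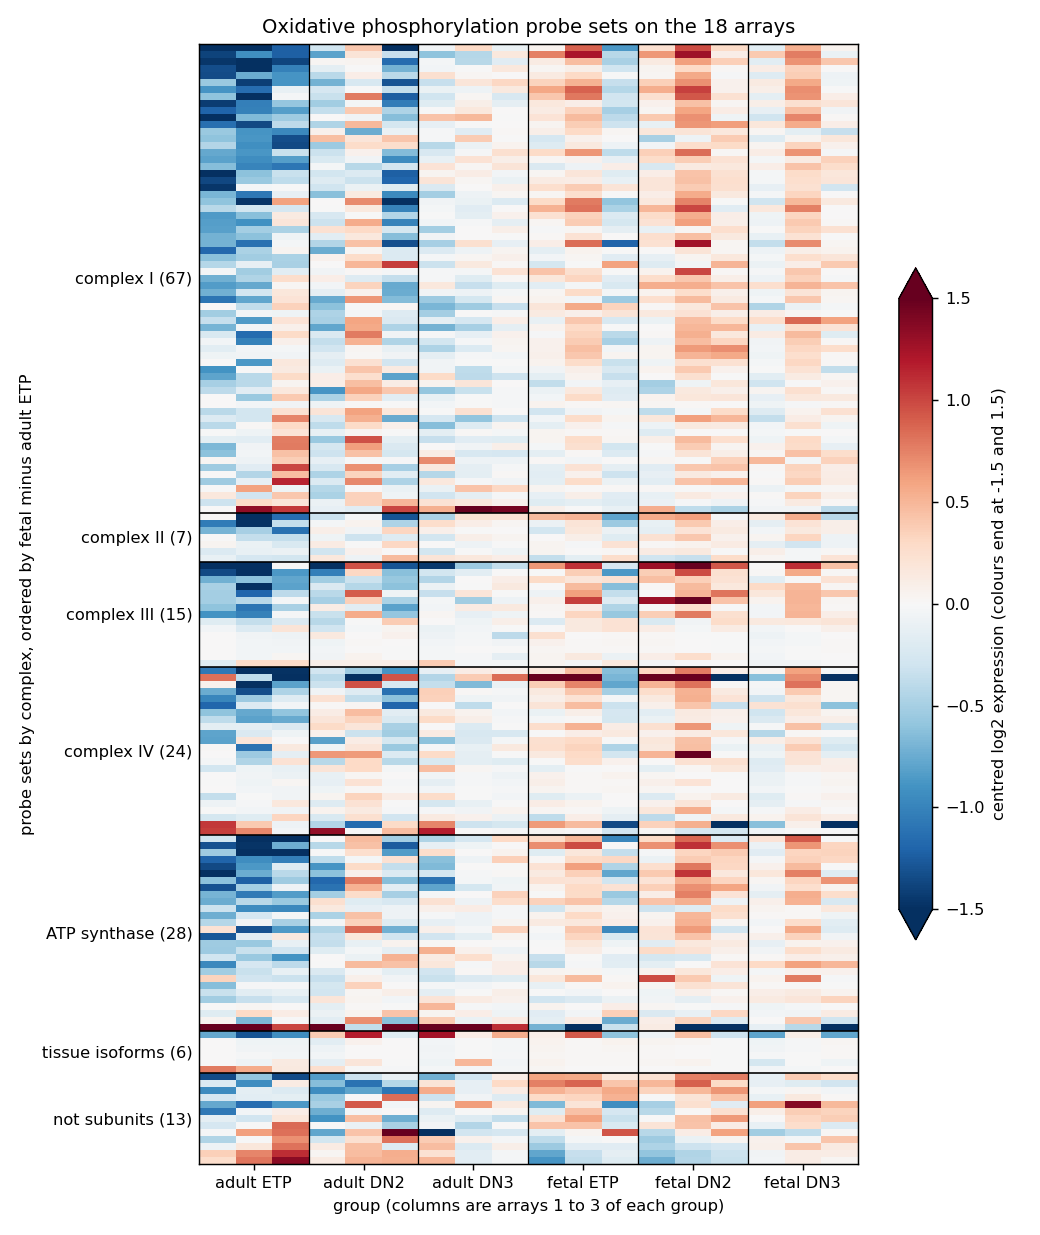
Centred log2 expression of all 160 member probe sets (rows, by complex and in order of the fetal minus adult ETP difference) on the 18 arrays (columns, 3 for each group). Blue, below the probe set's median over the arrays, prevails in the adult ETP columns, and the third adult ETP array is paler than the other 2 over much of complex I.

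By the array medians over probe sets, the low values of adult ETP were seen in complexes I, II and III and the ATP synthase, and were smaller in complex IV. Complex I medians were -0.61, -0.52 and -0.01 on the adult ETP arrays and 0.04, 0.41 and 0.14 on the fetal DN2 arrays. The ATP synthase medians were -0.54, -0.46 and -0.31 in adult ETP, which overlapped with no other group, and 0.08, 0.36 and 0.11 in fetal DN2. Complex III stood at -0.48, -0.41 and -0.06 in adult ETP. Complex IV ran only from -0.22 to 0.32 over the 18 arrays, with -0.11, -0.19 and -0.07 in adult ETP. With the probe sets of each gene averaged, the median fetal minus adult ETP difference was 0.46 log2 for complex IV and 0.45 for complex I. From adult ETP to adult DN3 these gene medians were 0.16 and 0.36 log2. By limma, with a moderated F test over the 6 groups, an adjusted p under 0.05 and a largest difference between group means of at least 1.8-fold, 33 of the 160 members (20.6%) were called, near the 16.8% called over all probe sets. The 33 came from 29 genes and comprised 15 of 67 probe sets of complex I, 2 of 7 of complex II, 3 of 15 of complex III, 1 of 24 (4.17%) of complex IV, 6 of 28 of the ATP synthase, none of the 6 tissue isoforms and 6 of 13 that are not subunits.

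**Figure D2:**
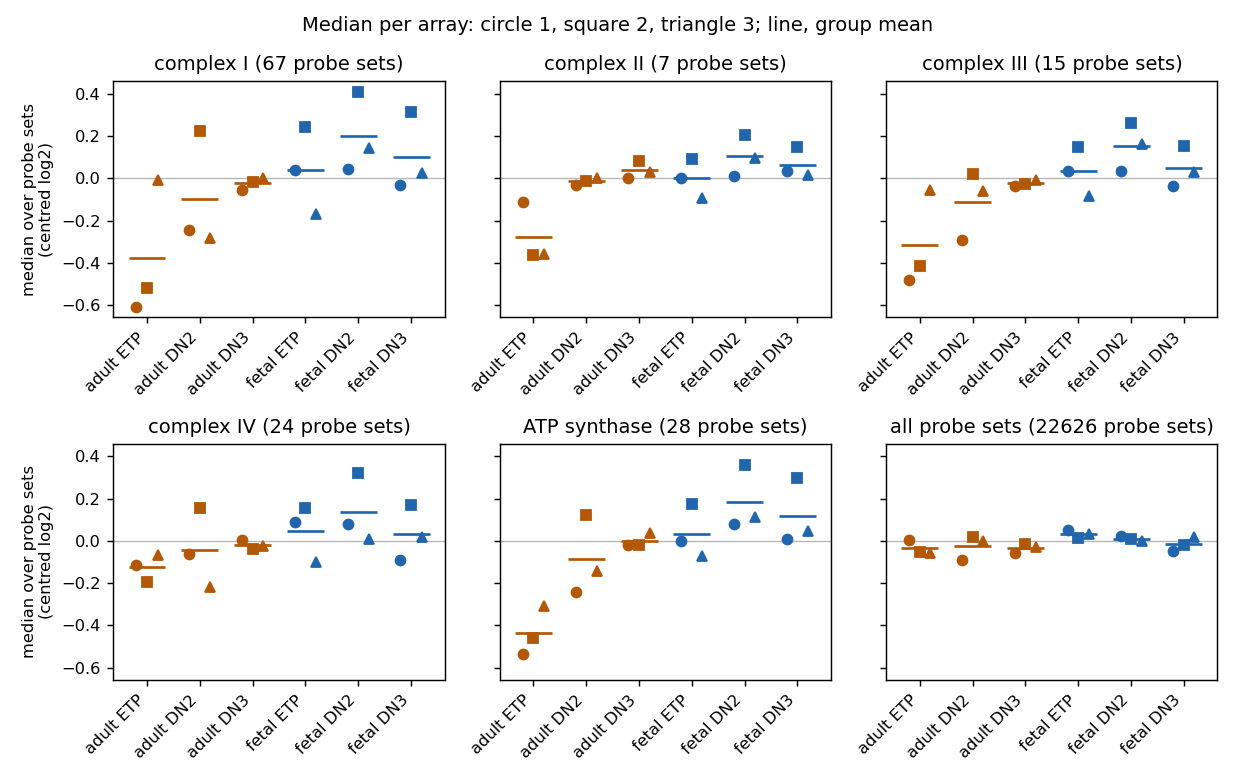
Median over the probe sets of each complex, and over all probe sets, on each array (centred log2). Symbols give the array number, lines the mean of the 3 array medians of a group, brown adult and blue fetal. The lowest complex I median was -0.61 (adult ETP) and the highest 0.41 (fetal DN2), while all probe sets together stayed between -0.089 and 0.050.

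The first comparison asks how fetal differ from adult ETP. At least 1.8-fold, 19 of the 160 members (11.9%) were higher in fetal ETP and 2 (1.25%) lower, against 5.04% and 3.45% of all probe sets. With no fold limit 26 were higher and 3 lower, beside 6.85% and 4.12% of all probe sets. The median difference over the members was 0.39 log2 and 84.4% were positive, against 0.07 log2 and 72.5% over all probe sets. By complex, the medians were 0.41 for complex I, 0.21 for complex II, 0.56 for complex III, 0.32 for complex IV and 0.45 for the ATP synthase, against 0.05 for the tissue isoforms. Every fetal array lay above every adult array in 63 members (39.4%), which is fewer than the 51.7% over all probe sets.

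Single arrays bear on these values. Between arrays of the same number the median difference of the members was 0.44 and 0.62 for numbers 1 and 2 but 0.06 for number 3, and for complex I it was 0.65, 0.76 and -0.17. Adult and fetal ETP arrays of a number did not deviate together from their group means (correlations 0.19, -0.34 and -0.06). Their matching by number therefore rests on the titles only. Without the second fetal ETP array 12 members were called (10 higher, 2 lower), and without the third adult ETP array 26 (24 higher, 2 lower). When all 3 fetal arrays numbered 2 were left out, an alternative chosen after seeing the data, 8 were called (6 higher, 2 lower).

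In complex I, 11 of 67 probe sets, from 11 genes, rose and none fell from adult to fetal ETP, and 10 rose and none fell from adult ETP to adult DN3. The shares of all probe sets that rose and fell were 5.04% and 3.45% between adult and fetal ETP. From adult ETP to adult DN3 they were 5.56% and 5.2%. These comparisons share the adult ETP arrays, as does that of adult ETP with adult DN2. Ndufb6, an accessory subunit of the membrane arm, was at -1.33, -1.52 and -1.01 in adult ETP (1434057_at), at -0.14, -0.00 and -0.71 in adult DN2 and at -0.04, -0.01 and 0.16 in adult DN3. On the fetal arrays it lay at 0.03, 0.09 and -0.30 in ETP, at 0.05, 0.30 and 0.02 in DN2 and at 0.11, 0.35 and 0.00 in DN3. The adult ETP arrays thus overlapped with no other group, and fetal ETP exceeded adult ETP by 1.23 log2 (SE 0.18, 2.35-fold, limma, adjusted p = 0.000767). The second Ndufb6 probe set (1434056_a_at) rose by 0.91 log2 from adult ETP to adult DN3 (adjusted p = 0.00372) as well.

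Ndufv1, the flavoprotein at which NADH is oxidized, showed a different order. It lay at -0.60, -0.87 and -1.33 in adult ETP (1415967_at), at 0.45, 0.18 and 0.42 in adult DN2 and at -0.02, 0.39 and -0.01 in adult DN3. Adult DN2 was the highest of the 6 groups for this gene, 1.29 log2 above adult ETP (SE 0.22, 2.44-fold, adjusted p = 0.00248). On the fetal arrays it ranged from -0.49 to 0.38, and fetal ETP was 0.88 log2 above adult ETP (adjusted p = 0.0212). The other 2 probe sets of Ndufv1 were not called in any comparison.

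The remaining complex I genes that differed between fetal and adult ETP belong to several parts of the complex. Ndufs1 and Ndufs3, core subunits that carry or surround the iron-sulfur chain, were higher in fetal ETP by 0.94 and 0.87 log2, and Ndufab1, the mitochondrial acyl carrier protein, by 1.12. Of the accessory subunits, Ndufa7 was higher by 1.90, Ndufc2 by 1.70, Ndufb7 by 1.54, Ndufa5 by 1.13, Ndufa12 by 1.01 and Ndufb9 by 1.01, with adjusted p between 0.00347 and 0.0402 over these 9 genes. Without a single array in turn, the call was kept in 9 of 18 fits for Ndufs3 and in 11 for Ndufab1, and in at least 14 for the other 7. Averaged over all probe sets of the gene, the difference was only 0.06 log2 for Ndufab1 and 0.34 for Ndufb9, with 3 probe sets each. For Ndufa7, Ndufc2, Ndufb7, Ndufa5 and Ndufa12 this average lay between 0.62 and 1.02 log2. Ndufa7 varied most between arrays, from -2.36 to -1.22 in adult ETP and from -0.86 to 0.88 in fetal ETP. Ndufs4, an accessory subunit near the electron input whose loss causes Leigh syndrome, was called in a single pair, from adult ETP to adult DN3, where it rose from -0.63, -0.99 and -1.08 to 0.21, 0.03 and 0.19 (1.05 log2, SE 0.15, adjusted p = 0.000321). Of the 3 Ndufs4 probe sets only 1448959_at was called, and the average over the 3 rose by 0.33 log2. Ndufs5 rose in that step too (1.21 log2, adjusted p = 0.0314). Ndufs8 (1423908_at), a core iron-sulfur subunit, was called by the F test but in no pair, and its difference between fetal and adult ETP was 1.00 log2 with an adjusted p of 0.0510.

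**Figure D3:**
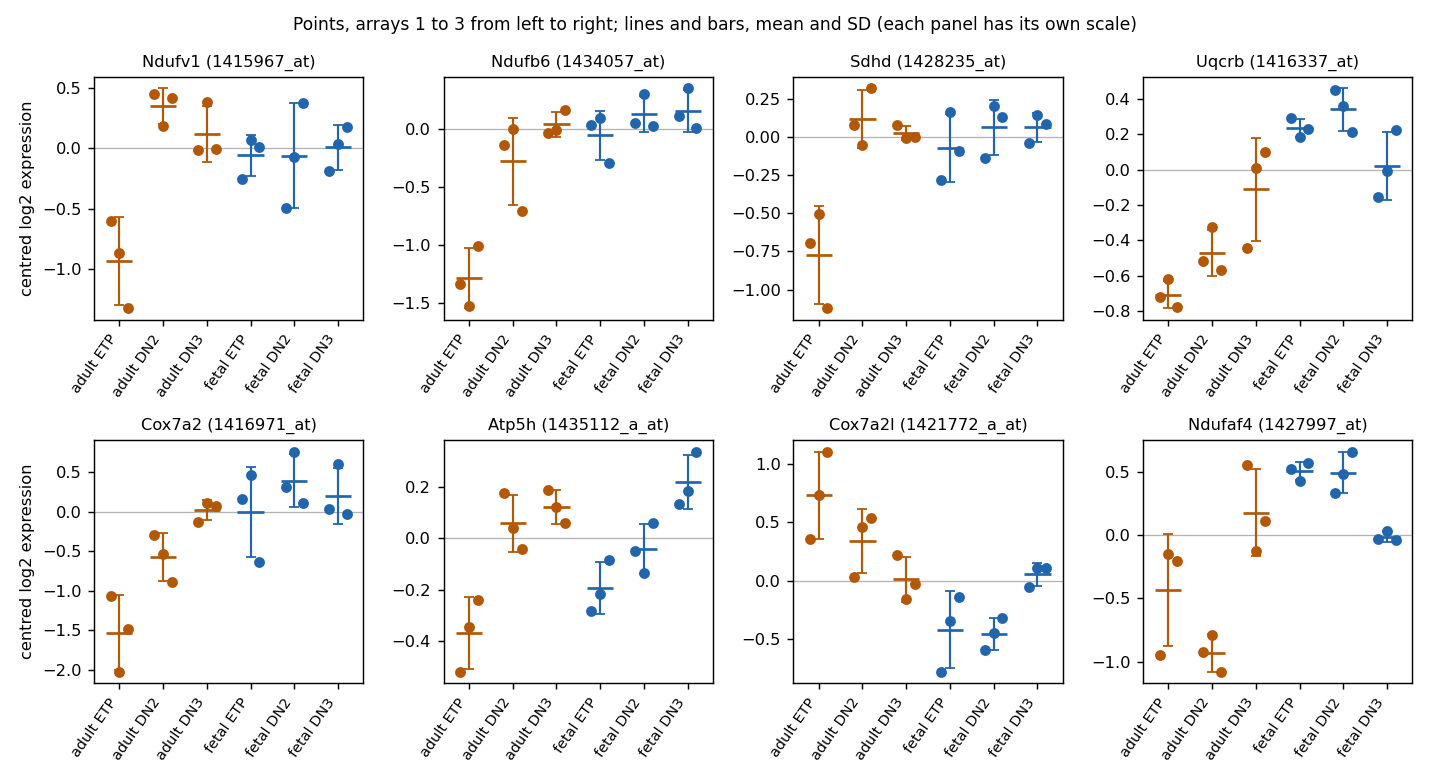
Centred log2 expression of 8 member probe sets on the 18 arrays, with the mean and SD of each group of 3 (brown adult, blue fetal); for each gene the probe set with the lowest p of the F test is drawn. Adult ETP is the lowest group for the first 6 genes, the highest for Cox7a2l, and for Ndufaf4 adult DN2 is the lowest.

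In complex II, succinate dehydrogenase, no probe set reached the fold limit between fetal and adult ETP, although all 7 differences were positive. Sdhd, a membrane anchor, was at -0.69, -0.50 and -1.12 in adult ETP (1428235_at), at 0.08, -0.05 and 0.32 in adult DN2 and at 0.08, -0.00 and 0.00 in adult DN3. It rose 1.86-fold from adult ETP to adult DN2 (0.89 log2, SE 0.16, adjusted p = 0.00295), and in fetal ETP it was 0.70 log2 above adult ETP (adjusted p = 0.0106), below the fold limit. On 1428235_at the adult ETP arrays lay apart from all others. The other Sdhd probe set, 1437489_x_at, ranged over only 0.45 log2 across the arrays. Averaged over its probe sets, Sdhd rose by 0.47 log2 from adult ETP to adult DN2 and was 0.43 log2 higher in fetal than adult ETP. Sdhb, the iron-sulfur subunit, rose by 1.10 log2 from adult ETP to adult DN3 (adjusted p = 0.0120), from -1.05, -1.49 and -0.36 to 0.27, 0.09 and 0.03. For Sdha, the flavoprotein, group means ranged over 0.31 and 0.40 log2 on its 2 probe sets and neither was called. Sdhc (1448630_a_at) differed by 1.19 log2 between fetal and adult ETP with overlapping arrays and an adjusted p of 0.147.

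Uqcrb, a small subunit of complex III beside the coenzyme Q binding site, had the lowest p of all members in the F test (adjusted p = 0.000305, 1416337_at). It was at -0.72, -0.62 and -0.78 in adult ETP, -0.52, -0.32 and -0.57 in adult DN2 and -0.44, 0.01 and 0.10 in adult DN3. On the fetal arrays it was at 0.29, 0.19 and 0.23 in ETP, 0.45, 0.36 and 0.21 in DN2 and -0.16, -0.01 and 0.22 in DN3. The fetal arrays thus lay above the adult arrays at the ETP and DN2 stages, by 0.94 log2 (SE 0.13, 1.92-fold, adjusted p = 0.000498) and 0.81 log2 (SE 0.13, adjusted p = 0.00268, under the fold limit), and overlapped at DN3. The second Uqcrb probe set, 1455997_a_at, had group means between -0.04 and 0.12 and did not pass the F test (adjusted p = 0.714).

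Uqcrfs1, the Rieske iron-sulfur protein, and Uqcrq, a small subunit, were called from adult ETP to adult DN3, with rises of 1.00 and 1.31 log2 (adjusted p = 0.0395 and 0.0490), and kept in 10 and 5 of the 18 fits without a single array. For Uqcrq the call rested on 1430326_s_at, while its other 3 probe sets differed by at most 0.26 log2 between group means. Uqcr10 (1434340_at) differed by 2.22 log2 between fetal and adult ETP, but the adult ETP arrays were spread, at -2.69, -2.49 and -0.00, and the adjusted p was 0.113.

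In complex IV, cytochrome c oxidase, Cox7a2 was the only gene called. This widely expressed isoform of a small subunit lay at -1.07, -2.02 and -1.49 in adult ETP (1416971_at), at -0.29, -0.54 and -0.89 in adult DN2 and at -0.12, 0.12 and 0.07 in adult DN3. In the fetal cells it was at 0.16, 0.47 and -0.64 in ETP and between -0.03 and 0.76 in DN2 and DN3. The 3 adult groups did not overlap, and fetal ETP exceeded adult ETP by 1.52 log2 (SE 0.30, 2.87-fold, adjusted p = 0.00574). Cox5b passed the F test on 2 of 6 probe sets (adjusted p = 0.0171 and 0.0183) with largest differences of 0.80 and 0.77 log2, under the fold limit.

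The ATP synthase was called in 3 of 28 probe sets between fetal and adult ETP, all higher in fetal ETP, and in 3 from adult ETP to adult DN3, all higher in DN3. Of all probe sets, 5.04% were called higher in fetal ETP and 5.56% higher in adult DN3 in these comparisons. Atp5pb, the b subunit of the peripheral stalk, was at -1.20, -0.93 and -1.02 in adult ETP (1426742_at) and at 0.02, 0.29 and 0.31 in fetal ETP, a difference of 1.26 log2 (SE 0.22, 2.39-fold, adjusted p = 0.00290). It rose by 0.99 log2 to adult DN2 and by 0.93 log2 to adult DN3. Atp5g1, which encodes subunit c of the membrane ring, was at -1.31, -1.47 and -0.73 in adult and 0.69, 0.98 and -0.00 in fetal ETP (1.73 log2, SE 0.37, adjusted p = 0.00863).

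Atp5o, the stalk subunit that confers oligomycin sensitivity, was higher by 1.49 log2 in fetal than adult ETP and by 1.73 log2 in adult DN3 than adult ETP (adjusted p = 0.0251 and 0.00886). Its adult ETP values were spread from -2.32 to -0.54. Atp5e, the epsilon subunit of the central stalk, rose by 0.98 log2 from adult ETP to adult DN3 (adjusted p = 0.0285). Atp5h, subunit d of the peripheral stalk, differed in its order: on 1435112_a_at it rose from ETP to DN3 in the adult (0.49 log2, adjusted p = 0.00166) and in the fetus (0.41 log2, SE 0.09, adjusted p = 0.00828), both under the fold limit. Its fetal ETP arrays, at -0.28, -0.22 and -0.08, overlapped with those of adult ETP, at -0.52, -0.35 and -0.24.

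Atp5c1, the gamma subunit, was measured by 2 probe sets that went opposite ways. On 1438809_at the 9 adult arrays ranged from -0.37 to 2.83 and the 9 fetal arrays from -2.69 to 0.12, and the F test gave an adjusted p of 0.0236, while no pair was called. On 1416058_s_at adult ETP was the lowest group (mean -0.40), and fetal exceeded adult ETP by 0.43 log2 (adjusted p = 0.0520).

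**Figure D4:**
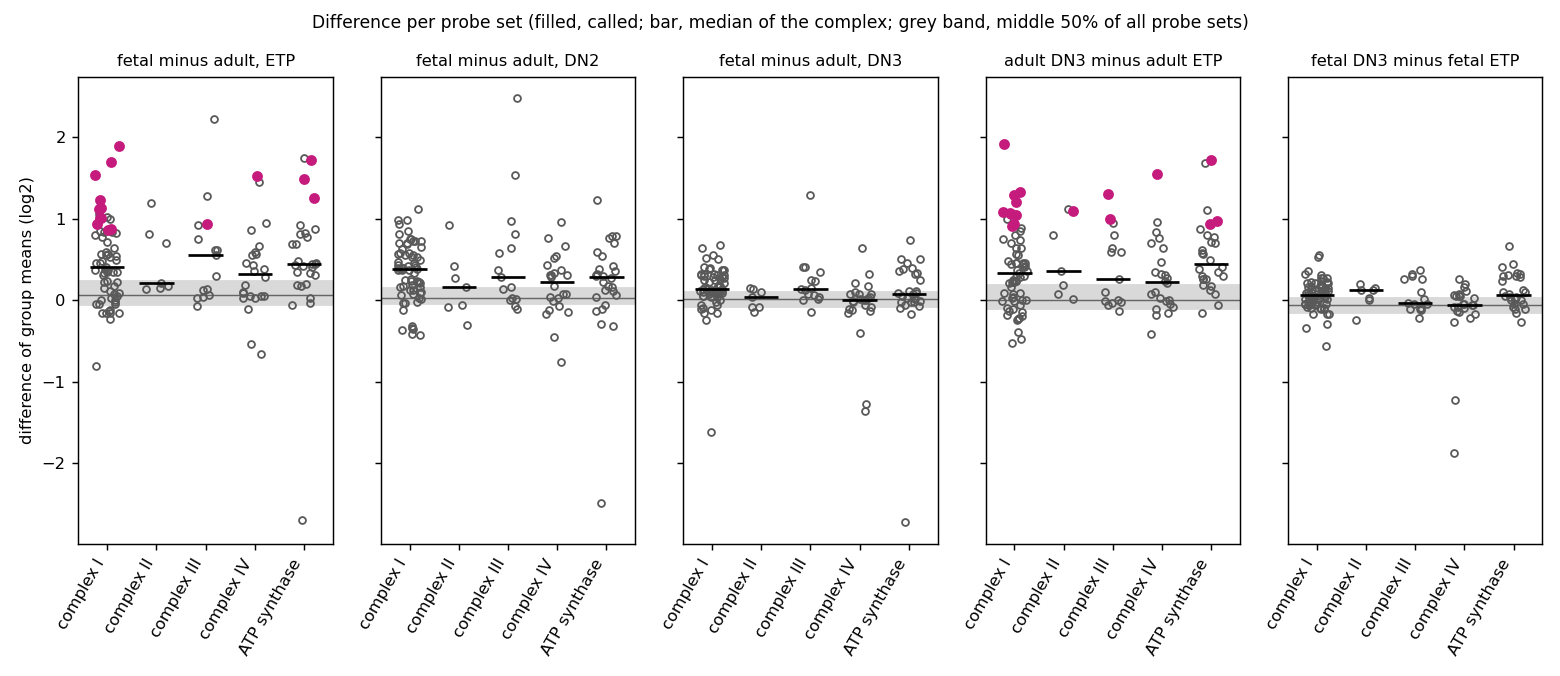
Difference of group means (log2) for each subunit probe set in 5 comparisons, by complex. Filled points were called by limma, bars are medians of a complex, and the grey band holds the interquartile range of all probe sets. All called points lie in the panels that contain adult ETP, and the medians of complex I are 0.41, 0.38 and 0.15 for fetal minus adult ETP, DN2 and DN3.

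At the DN2 stage the fetal values were higher by a median of 0.27 log2, against 0.03 over all probe sets, but only the 2 probe sets of Ndufaf4, which is no subunit, were called (1.25%, against 1.87% of all probe sets called higher and 1.57% lower). With the array number as a block, 4 members were called. Without the second adult DN2 array the count was 12, and without the second fetal DN2 array it was 1. At the DN3 stage the median difference was 0.10 log2 and limma called no member, while 2.77% of all probe sets were called in either direction. At an unadjusted p under 0.05 there were 4 of the 160 members, a smaller share than the 2311 of all 22626 probe sets. These were Atp5c1 (1438809_at), Ndufab1 (1435934_at) and Cox6b2, lower, and Ndufb11, higher in fetal DN3. An unmoderated one-way test with the same fold limit and no adjustment gave 3 members, and limma with array weights 4. The test of whether the fetal against adult difference changed with the stage called no subunit. It called 1 assembly factor, Ndufaf4, of the 160 members, against 2.03% of all probe sets. An unadjusted p under 0.05 was found for 16 of 141 subunit probe sets and for 2422 of all 22626, a similar share. A fall of the subunits' difference from ETP to DN3 was therefore not shown for any single probe set.

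Within the adult series all subunit calls lay between ETP and the later stages. From ETP to DN2, 7 members (4.38%) rose and none fell, against 2.96% and 3.11% of all probe sets, namely Ndufb6, Ndufb7, Ndufs3, Ndufv1, Sdhd, Atp5o and Atp5pb. When each of the 18 arrays was left out in turn, Ndufb6 and Ndufv1 were called in all 18 fits and Sdhd and Atp5pb in 16, but Ndufs3 in 5, Ndufb7 in 4 and Atp5o in 2. Between arrays of the same number the median of the members from ETP to DN2 was 0.27, 0.53 and -0.06 log2, and from DN2 to DN3 it was 0.12, -0.19 and 0.23. Adult ETP and adult DN2 arrays of a number did not deviate together (correlations 0.31, -0.42 and -0.02), so their matching rests on the titles only. Leaving out a single array gave 4 calls (without the second adult DN2 array) to 10 (without the first adult ETP array), and a block for the array number gave 11. From DN2 to DN3 only Ndufaf4 was called, 1 of 160 (0.625%), against 0.928% of all probe sets. From ETP to DN3, 18 members (11.2%) rose and none fell, against 5.56% and 5.2% of all probe sets. With no fold limit the counts were 30 and 2, beside 7.02% and 6.07%. Without the second adult DN3 array 9 rose. The median of the members over this whole step was 0.30 log2, with 76.9% positive, against a median of -0.00 and 49.8% over all probe sets, and 0.45 for the ATP synthase, 0.37 for complex II, 0.34 for complex I, 0.26 for complex III and 0.23 for complex IV.

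Within the fetal series no single member passed both the limit on the adjusted p and the fold limit. With no fold limit 2 members, both of the ATP synthase, rose from fetal ETP to DN3 and none fell. Over all 22626 probe sets 689 rose and 727 fell. From fetal ETP to DN2 the median was 0.13 log2 with 73.1% of members and 86.6% of complex I positive, against -0.02 log2 and 27.6% over all probe sets. From DN2 to DN3 it was -0.10 log2 with 23.1% positive, against -0.03 log2 and 27.7%. Between arrays of the same number, which deviated together in the fetal groups, the median of the members was 0.01, 0.10 and 0.28 log2 from ETP to DN2, against -0.03, -0.01 and -0.03 over all probe sets. From DN2 to DN3 it was -0.11, -0.07 and -0.06 log2, against -0.08, -0.03 and 0.02. No member was called by limma from ETP to DN2, from DN2 to DN3 or from ETP to DN3, while 0.972%, 2.47% and 5.45% of all probe sets were. At an unadjusted p under 0.05 there were 3, 12 and 10 of the 160 members, against 1144, 2074 and 3602 of all 22626 probe sets. In each step this was a smaller share of the members than of all probe sets. An unmoderated one-way test with the same limits and no adjustment gave 0, 0 and 2 members. With the array number as a block 1 member was called from fetal ETP to DN3.

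The isoforms known from other tissues mostly stayed flat. Group means of Cox4i2, known from lung, of the muscle isoform Cox8b and of the testis isoform Cox8c differed by 0.06, 0.08 and 0.04 log2 at most. Cox6a2, a heart and skeletal muscle isoform, was at 0.78, 0.56 and 0.15 in adult ETP and between -0.05 and 0.25 on all other arrays (F test, adjusted p = 0.0262, largest difference 0.52 log2, under the fold limit). Cox6b2, a testis isoform, was at -0.77, -1.30 and -0.94 in adult ETP and 1.25, 0.12 and 0.55 in adult DN3, a rise of 1.64 log2 (SE 0.44, adjusted p = 0.0241). In fetal DN3 it was at -0.79, 0.09 and -0.77, below the 3 adult DN3 arrays. Cox7a1, another muscle isoform, was not called, with a largest difference of 0.24 log2.

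Among the genes that are not subunits, Cox7a2l ran opposite to the subunits. It encodes a factor that joins complexes III and IV into supercomplexes, and C57BL/6 mice are known to carry a shortened form. On 1421772_a_at it was at 0.36, 0.74 and 1.11 in adult ETP, 0.03, 0.46 and 0.54 in adult DN2 and 0.22, -0.16 and -0.03 in adult DN3. The fetal arrays were at -0.78, -0.34 and -0.14 in ETP, -0.60, -0.45 and -0.32 in DN2 and -0.06, 0.11 and 0.11 in DN3. Adult ETP was the highest group, and fetal ETP was lower by 1.15 log2 (SE 0.20, 2.22-fold, adjusted p = 0.00248), with 1.29 log2 on a second probe set (adjusted p = 0.00619) and 0.60 log2 on the third, which was not called (adjusted p = 0.116). These 2 probe sets were the only members called lower in fetal ETP, and at DN3 the differences of all 3 lay between -0.07 and 0.09 log2.

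Ndufaf4, an assembly factor of complex I, had its lowest values in adult DN2. On 1427997_at it was at -0.95, -0.14 and -0.21 in adult ETP, -0.93, -0.79 and -1.08 in adult DN2 and 0.55, -0.13 and 0.11 in adult DN3. The fetal arrays were at 0.52, 0.43 and 0.57 in ETP, 0.34, 0.49 and 0.66 in DN2 and -0.03, 0.03 and -0.04 in DN3. Fetal exceeded adult cells by 0.94 log2 at ETP (SE 0.20, adjusted p = 0.00776) and 1.43 log2 at DN2 (SE 0.20, 2.69-fold, adjusted p = 0.000876), while at DN3 the difference was -0.19 log2, and this change with the stage passed its test (adjusted p = 0.0151). Without the 3 fetal arrays numbered 2 it did not, nor did the rise from adult DN2 to adult DN3. The second probe set, 1435333_at, gave 1.02 and 1.29 log2 at ETP and DN2 and -0.32 at DN3, with an adjusted p of 0.0573 for the change with the stage.

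Ndufaf5, another assembly factor of complex I, was at -1.35, -0.59 and -1.34 in adult and 0.59, 0.56 and 0.16 in fetal ETP (1.53 log2, SE 0.27, adjusted p = 0.00302). Ndufaf3 was called by the F test only, with its highest group mean in fetal DN3, where the arrays were at 0.62, 1.38 and 0.48. Ndufaf1, Ndufaf7, Sdhaf1, Sdhaf2 and Sdhaf4 were not called in any of the 11 tests.

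Probe sets of the same gene often differed. Of the 46 member genes with several probe sets, 15 had a call between fetal and adult ETP, but in only 1 of them were all probe sets called, and in 4 of the 15 the probe sets did not all share a sign. From adult ETP to adult DN3 the same held for 12 genes with a call, of which 1 was called on all probe sets and 3 had mixed signs. Of the 160 member probe sets, 81 carry names that mark possible cross-hybridization, and the many pseudogenes of this family may add to that. Without them 20 members were called by the F test and 12 between fetal and adult ETP, all higher in fetal ETP. When the probe sets of each gene were averaged, 16 genes were called by the F test and 11 between fetal and adult ETP (10 higher, 1 lower), and the difference was positive in 80 of 87 genes (92%), against 72.1% of 12393 genes.

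Other mitochondrial genes were compared on the same arrays. For reference, 5.04% of all probe sets were called higher and 3.45% lower in fetal than adult ETP. At DN2 these shares were 1.87% and 1.57%, and from adult ETP to adult DN3 5.56% rose and 5.2% fell. Among 74 genes of mitochondrial ribosomal proteins (127 probe sets) 21 probe sets were higher and none lower in fetal than adult ETP, with a median of 0.52 log2, and Mrpl50, Mrpl39 and Mrpl12 were higher by 2.12, 1.04 and 1.51 log2. At DN2, 7 of them were higher and none lower, and from adult ETP to adult DN3, 15 rose and 2 fell. Of 41 probe sets for mitochondrial import 7 were higher in fetal ETP, among them Timm17a, Tomm70a and Hspa9 (1.18, 1.04 and 1.01 log2), and 6 rose from adult ETP to DN3. Of 36 probe sets for the tricarboxylic acid cycle and pyruvate entry 4 were higher in fetal ETP, 3 of them of Cs, citrate synthase, and the fourth of Mpc1, a pyruvate carrier.

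Of 31 probe sets for electron carriers and transport 5 were higher in fetal ETP, those of Cycs, cytochrome c (1.16 and 0.94 log2), and of Vdac1, the outer membrane channel. Among other assembly factors 7 of 43 probe sets were higher, including Acad9 and Ecsit of complex I (1.15 and 1.10 log2), and Tmem186 was lower by 1.88 log2. Coenzyme Q synthesis gave 1 higher (Coq7) and 1 lower (Coq8a, by 2.59 log2) of 13. Of 37 probe sets for mitochondrial biogenesis and mitochondrial DNA 2 were higher, both of Tfb1m, a share near the 5.04% of all probe sets. The median of this list was 0.09 log2, close to the 0.07 of all probe sets. None of these 6 lists, nor that of the ribosomal proteins, had a call between fetal and adult DN3, against 2.77% of all probe sets.

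Cell cycle genes moved along with adult ETP as well. Their array medians were -0.48, -0.87 and -0.72 in adult ETP, and between -0.33 and 0.23 on the other 15 arrays. Of 53 probe sets 20 were higher in fetal than adult ETP and none lower, 26 rose from adult ETP to adult DN2 and 19 from adult ETP to adult DN3. Over all probe sets 5.04% were higher in fetal ETP, and 2.96% and 5.56% rose in these adult steps. Between fetal and adult DN2 no cell cycle probe set was called, and the median over the list was -0.04 log2. The part of the cell cycle genes, as that of the myeloid and dendritic cell genes, in the low values of adult ETP was not tested. On the 3 adult ETP arrays the complex I medians were -0.61, -0.52 and -0.01. The myeloid medians there were 3.32, 2.20 and 3.92, and the dendritic cell medians 1.57, 3.70 and 1.53.

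**Figure D5:**
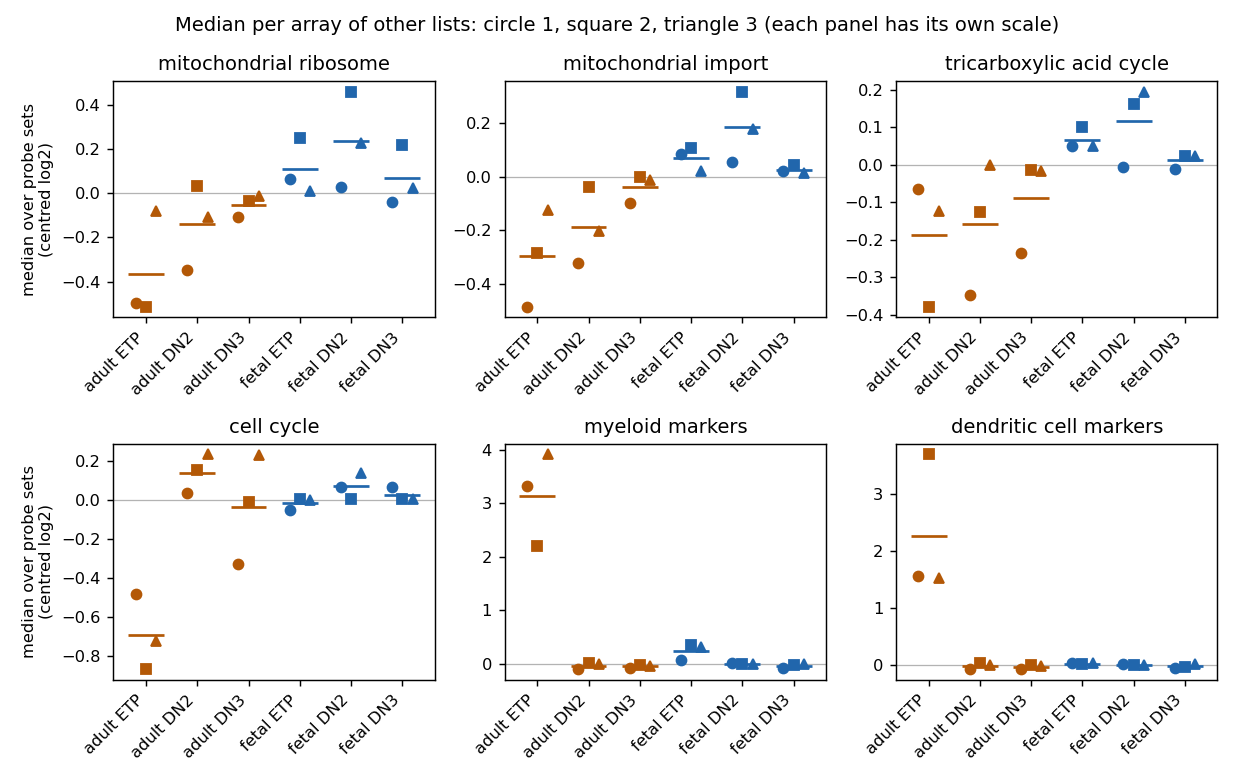
Median over the probe sets of 6 other gene lists on each array (centred log2, each panel with its own scale). Symbols give the array number, lines the group mean of the 3 medians, brown adult and blue fetal. The cell cycle median lies between -0.87 and -0.48 on the adult ETP arrays, and the myeloid median between 2.20 and 3.92 there and at most 0.35 elsewhere.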

How the data were processed

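RNA was amplified in a double cycle before hybridization. The authors deposited log2 values, computed by GCRMA (version not given in the sources used here) in GeneSpring GX and shifted so that the median of every probe set across the arrays is 0. Such values allow no filter on low levels. Control probe sets were not analysed here. The number of arrays limits the precision.

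A linear model with 6 group means was fitted by limma (version 3.58.1, R 4.3.3) over 22626 probe sets, with no variance trend. P-values were adjusted by Benjamini and Hochberg over the whole table. A probe set was called at an adjusted p under 0.05 and at least 1.8-fold, the fold limit of the study's methods. Scripts were tested on simulated data. Genes were named from GEO's platform annotation, in which 20380 probe sets name 1 gene, 691 several and 1555 none. The members and lists were chosen with earlier results of these data known. Named were all members called in any of 11 tests, the 3 lowest F test p of each complex, complex II, the tissue isoforms and the genes that are not subunits, and at most 3 called examples of a list. Genes outside this rule (Uqcr10, Ndufb11 and Tmem186 among them) were named after their values were seen.

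Array numbers were taken from the titles. Deviations from the group means correlated above 0.1 for all 3 same-numbered pairs among the fetal groups, between adult DN2 and each fetal group, and between adult DN2 and adult DN3, but not for adult ETP with any group or adult DN3 with any fetal group, so the block is given as an alternative.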

Additional observations from a re-analysis of the deposited data

Results flagged for a closer look

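The difference between fetal and adult cells changed with the stage for Ndufaf4 (1427997_at). It was 0.94 log2 at ETP, 1.43 log2 at DN2 and -0.19 log2 at DN3, a span of 1.62 log2 (limma, interaction over the 3 stages, adjusted p = 0.0151). A second probe set of the gene gave an adjusted p of 0.0573. Over all 22626 probe sets 459 met the same limits. The cause was not tested.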

How the results depend on the processing

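Of 49 member calls in the 9 pairwise comparisons, 20 were kept whichever array was left out, 45 when each array was centred on its median and 47 with the array number as a block, and none changed sign under these settings. Leaving out single arrays gave 21 (without adult ETP replicate 2) to 36 calls over the 6 groups instead of 33, 12 (without fetal ETP replicate 2) to 29 between fetal and adult ETP instead of 21, 1 (without fetal DN2 replicate 2) to 12 (without adult DN2 replicate 2) at DN2 instead of 2, and 0 to 1 at DN3. It gave 4 to 10 from adult ETP to DN2 instead of 7, 0 (without adult DN2 replicate 3 or adult DN3 replicate 1) to 1 from adult DN2 to DN3, 9 (without adult DN3 replicate 2) to 24 from adult ETP to DN3 instead of 18, 0 to 2 from fetal ETP to DN3 instead of 0, and 1 to 5 for the change with the stage instead of 1. With the replicate block the counts were 4 at DN2, 11 from adult ETP to DN2, 1 from fetal ETP to DN3 and 4 for the change with the stage. Array weights gave 11 at DN2, 4 at DN3, 3 from fetal DN2 to DN3, 2 from fetal ETP to DN3 and 7 for the change with the stage. Without a fold limit there were 5 at DN2, 18 from adult ETP to DN2, 32 from adult ETP to DN3 and 2 from fetal ETP to DN3, and with a limit of 1.5-fold, chosen after seeing the data, 5, 16, 28 and 1. Without the 20% of probe sets of smallest SD there were 4 at DN2, 2 from fetal ETP to DN3 and 2 for the change with the stage. A one-way test of the compared groups gave, with Benjamini-Hochberg adjustment, 2 between fetal and adult ETP and 0 at DN2, from adult ETP to DN2, from adult DN2 to DN3 and from adult ETP to DN3, and without adjustment 6 at DN2, 3 at DN3 and 2 from fetal ETP to DN3. Fitting limma to the compared groups alone gave 7 between fetal and adult ETP, 1 at DN2, 0 from adult ETP to DN2, 0 from adult DN2 to DN3, 10 from adult ETP to DN3 and 1 from fetal ETP to DN3, with fewer arrays behind each spread. Probe sets without a cross-hybridization name gave 20 over the 6 groups and 12 between fetal and adult ETP, being fewer. Gene means gave 16 over the 6 groups, 11 between fetal and adult ETP, 1 from adult ETP to DN2, 9 from adult ETP to DN3 and 1 from fetal ETP to DN3. Without the 3 fetal arrays numbered 2, also chosen after seeing the data, there were 10 over the 6 groups, 8 between fetal and adult ETP, 1 at DN2, 0 from adult DN2 to DN3 and 0 for the change with the stage. The cause of the other shifts was not tested.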
